A study of Homo sapiens with 3 samples.

Results

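ATF4 and 8 genes of the amino acid stress response were examined in an eCLIP peak list of mouse PXR from human colon cells. The genes were ATF4, DDIT3, TRIB3, ASNS, PSAT1, PHGDH, SLC3A2, SLC7A5 and SLC7A11. A peak was counted for a gene when its centre lay in the gene's span in the NCBI RefSeq table of GRCh38.p14, whose coordinates are those of the hg38 build of the peaks. The members are 9 of 59792 genes in the table, of which 20037 are coding genes on chromosomes 1 to 22, X and Y. They were taken with or without a peak, and together they held 45 of the 21031 peaks.

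In eCLIP, RNA that ultraviolet light has joined to a protein is precipitated with that protein and sequenced. The cells were LS174T, an established human colon adenocarcinoma line, and all libraries came from cells transfected for 24 h with HA-tagged mouse Pxr, the pregnane X receptor, a nuclear receptor that senses drugs and bile acids. The labels give 1 input library and 2 replicates of the PXR immunoprecipitate, name antibodies against PXR, HA and IgG without assigning them to libraries, and name no group without the transfected receptor. The data analysed here are 1 list of immunoprecipitate peaks, so no value has a spread between replicates and no comparison with input was made.

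The integrated stress response joins these genes. Kinases that sense missing amino acids, unfolded protein, double-stranded RNA or lack of haem phosphorylate the initiation factor eIF2, which slows translation of most mRNAs while that of ATF4 goes up. ATF4 is a bZIP transcription factor that binds DNA as a dimer with C/EBP proteins and switches on genes for making and importing amino acids, and later the factor DDIT3 (CHOP), which is linked to cell death. Dividing intestinal epithelial cells and colon tumour lines draw on this import and synthesis.

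All 9 genes held at least 1 peak, where 41.6% of coding genes did (8329 of 20037). Among the 14410 coding genes whose spans fall within the members' range, 2128 to 78253 bases, the share was 41.2%. The 9 genes were chosen with earlier results of these data known, so their count is not independent of the data. The members held from 1 peak (DDIT3) to 10 peaks (PHGDH), with a median of 5, against a median of 2 over coding genes with a peak. The number of reads under a summit, within 200 bases, had a median of 67 over the 45 peaks and ranged from 17 to 368. Over the 19270 peaks in coding genes the median was 22, and 43 of the 45 member peaks lay above it. The deposited fold is the peak caller's ratio of the summit to its background, which at all 45 peaks equalled a whole number of reads in the 10 kb around it. Whether those background reads came from the immunoprecipitate or from the input is not stated, and the same holds for each number of reads in 10 kb below. Summit and background were both whole numbers, with no visible scaling between libraries, and the fold is not read here as enrichment over input. Its median was 6.45 over the member peaks and 5.93 over peaks in coding genes, so the members stood further from other genes in depth than in fold. A gene's RNA level sets how many of its fragments can be sequenced. RNA levels were not analysed here, so their part in these counts was not tested.

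All 40 peaks in the 8 members with a strand in the RefSeq promoter table lay on the strand of the gene, against 94.3% of peaks in coding genes with a listed strand, and 98.4% where only 1 gene covers the peak. SLC7A11 has no entry in that table. Its 5 peaks all lay on the minus strand. All 10 colon epithelial markers held a peak, led by KRT8 with 1147 reads, against 41.6% of coding genes. None of 5 hepatocyte and none of 5 blood markers did. Of 5 fibroblast and endothelial markers only COL1A2 did, with 10 reads. The markers were chosen with earlier results of these data known, so they are no independent check of the labelled cell type.

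The DNA just before the start is shown for 4 members. In each of them the most upstream peak opens within 53 bases after the most upstream listed start. These letters lie before that start, and the edge of a peak does not mark the end of an RNA. Each sequence is the 60 bases before a start listed by RefSeq (GRCh38.p14), read 5′ to 3′ along the gene.

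ATF4 (chr22:39520499-39520558, plus strand): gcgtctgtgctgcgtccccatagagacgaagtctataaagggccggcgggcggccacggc

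PSAT1 (chr9:78297065-78297124, plus strand): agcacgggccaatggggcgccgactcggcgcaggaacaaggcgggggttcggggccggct

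PHGDH (chr1:119711874-119711933, plus strand): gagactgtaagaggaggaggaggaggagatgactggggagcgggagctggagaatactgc

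SLC7A5 (chr16:87869508-87869567, minus strand): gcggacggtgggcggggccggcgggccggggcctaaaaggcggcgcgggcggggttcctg

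The first peak opened 53 bases after this start in ATF4, 51 in PSAT1, 40 in PHGDH and 27 in SLC7A5. In SLC3A2 peaks opened 74 and 40 bases after different listed starts. These are 5 of the 8 members with listed starts, and 15.8% of coding genes with a listed strand have a peak that opens 0 to 99 bases after a start, or 36.1% of those that have a peak. The 250 bases before the members' starts were 51.2% (PHGDH) to 79.6% (SLC7A5) G and C, on both sides of the median of coding genes, 62.0%.

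ATF4 factors bind the C/EBP-ATF response element, whose core TGATGNAA (TTNCATCA on the other strand) was searched on both strands from 250 bases before to 50 after each listed start. It occurred in 2 of the members' 15 windows, 1 of ASNS and 1 of SLC3A2, and in 2.69% of the windows of coding genes. In the lines below the match is in capitals.

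ASNS (chr7:97872439-97872506, minus strand, match from base -68 counted from the start): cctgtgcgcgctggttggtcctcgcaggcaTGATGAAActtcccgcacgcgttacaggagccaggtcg

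SLC3A2 (chr11:62881728-62881748, plus strand, match from base 38 of the start): aggactccTTACATCAgctcc

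The ASNS match lies before the start that the gene's most upstream peak follows by 103 bases. The search reads letters only, and a window without a match says nothing about the factor.

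The transcription factors differed widely in depth. ATF4, on chromosome 22 from 39520559 to 39522686 on the plus strand, is the shortest member, and its 3 peaks covered 88.6% of the span. The first held 145 reads at its summit (exact Poisson 95% interval 122 to 171), the middle one 67 reads (51.9 to 85.1) and the last 123 reads (102 to 147). The first and last did not differ beyond their intervals, and the middle one lay below both. Their folds were 8.56, 4.03 and 7.43. About the same 784 to 803 reads lay in the 10 kb around each, since that window spans the whole gene. By its deepest summit ATF4 ranked 195 of 8329 coding genes with a peak, but by its highest fold 3023.

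DDIT3, the stress factor downstream of ATF4, lies on chromosome 12 from 57516588 to 57520517 on the minus strand. It held 1 peak, at 57516564 to 57517121, with 24 reads (15.4 to 35.7) and a fold of 5.10. By depth it ranked 3601 of 8329, near the middle of coding genes with a peak and the lowest of the members, and by fold 7296, well below the middle. The peak lay at the downstream end of the gene, and none followed the gene's starts. Its edge reaches into the span of MARS1, the methionyl-tRNA synthetase gene on the opposite strand, which held 10 peaks of its own.

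TRIB3, a pseudokinase that ATF4 induces and that restrains ATF4 signalling, lies on chromosome 20 from 380760 to 397559 on the plus strand. It held 6 peaks, and 2.74% of coding genes hold 6 or more. From the upstream end the summits held 155, 56, 73, 175, 141 and 178 reads. The intervals of the first, 132 to 181, and the last, 153 to 206, overlap, while peaks 2 and 3, at 42.3 to 72.7 and 57.2 to 91.8 reads, lay below all the others. The deepest peak was also the widest, at 1372 bases, and had the highest fold of the gene, 9.67. TRIB3 ranked 134 by depth.

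**Figure D1:**
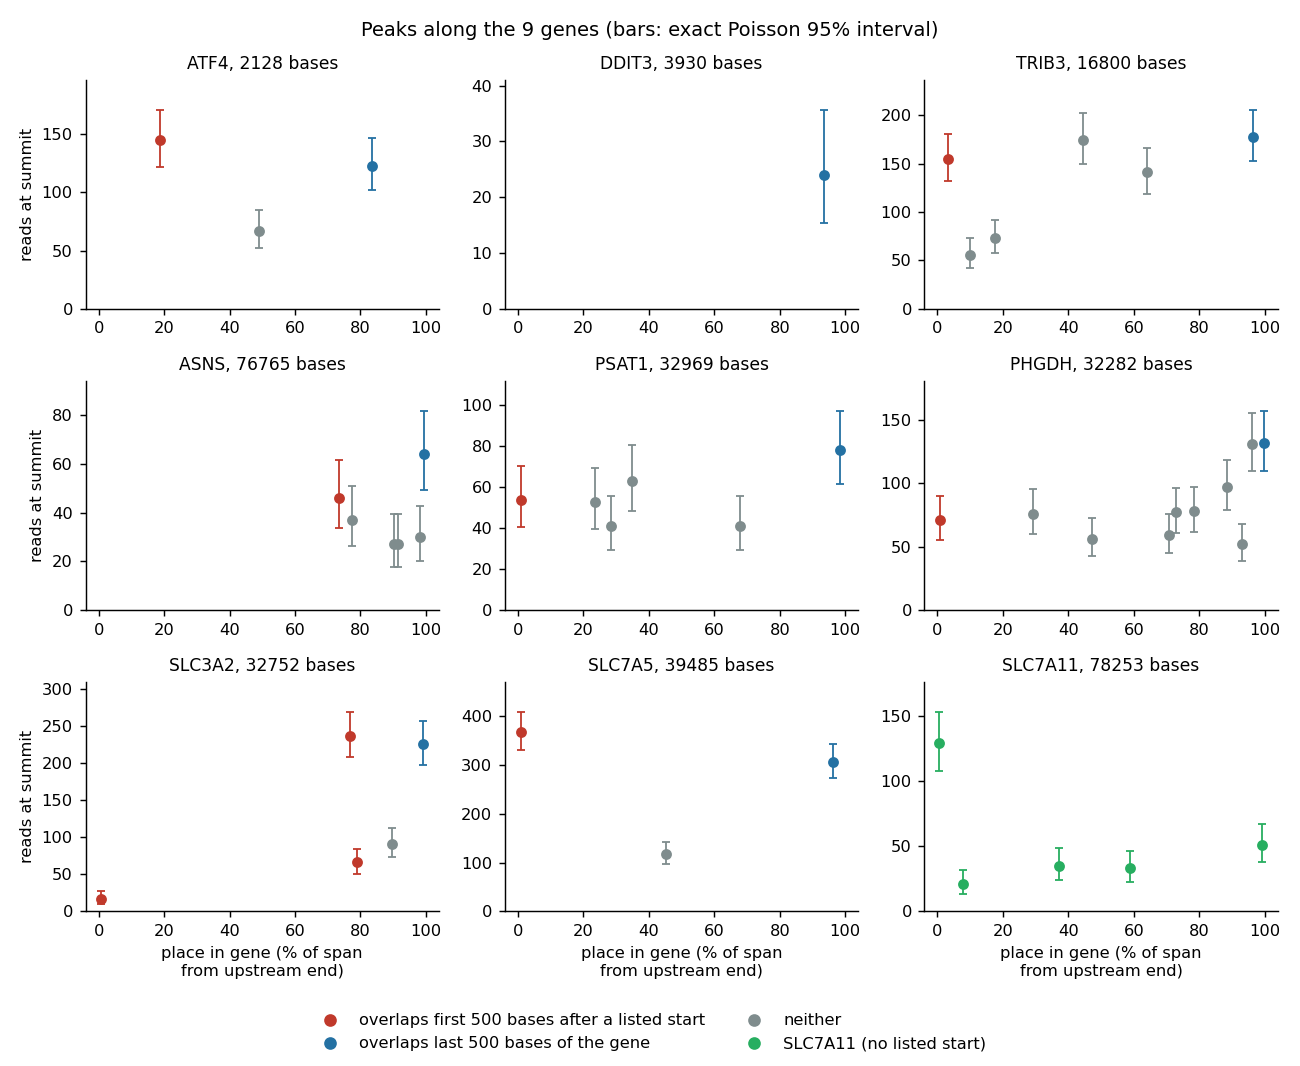
Reads at the summit of each of the 45 peaks (vertical axis, linear, from 0) against the place of the peak centre in percent of the gene span from the upstream end, with 1 panel per gene and bars for exact Poisson 95% intervals. SLC7A11 has no listed strand and is drawn along the strand of its peaks; in ATF4 (145, 67 and 123 reads) and SLC7A5 (368, 118 and 306 reads) both ends stand above the middle.

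The enzymes of serine and asparagine synthesis held 6 to 10 peaks each, spread along the gene in PHGDH and PSAT1 and confined to its downstream part in ASNS. PHGDH, which takes the first step from glycolysis to serine, lies on chromosome 1 from 119711934 to 119744215 on the plus strand. Its 10 peaks are matched or exceeded in 0.584% of coding genes. The first peak held 71 reads (55.5 to 89.6) at a fold of 16.8, the next 76 reads at 11.7 and the one after it 56 reads at 6.28. The next 4 held 59, 77, 78 and 97 reads and the eighth held 52. The last peaks were the deepest, with 131 reads (110 to 155) and 132 reads (110 to 157), beyond the interval of each of the first 6. The fold was highest in the first peak, where the 10 kb held 164 reads. It was 3.55 to 6.50 in peaks 4 to 8, and 10.3 and 10.9 in the last peaks, around which the 10 kb held 589 and 561 reads.

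PSAT1, the transaminase that takes the next step to serine, lies on chromosome 9 from 78297125 to 78330093 on the plus strand and held 6 peaks. Their summits held 54, 53, 41, 63, 41 and 78 reads from the upstream end. The last, with an interval of 61.7 to 97.3, lay above both peaks of 41 reads (29.4 to 55.6), and its interval overlapped those of the others. As in PHGDH, the first peak had the highest fold, 12.2, and the last the most reads, at a fold of 8.86.

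ASNS, asparagine synthetase, lies on chromosome 7 from 97851677 to 97928441 on the minus strand. All of its 6 peaks lay 73.5% or more of the way along the span, and the most upstream one follows a listed start that lies within the span. From there the summits held 46, 37, 27, 27, 30 and 64 reads. The last peak had 64 reads (49.3 to 81.7), and its interval overlapped those of the first, 33.7 to 61.4, and of the next, 26.1 to 51.0. Its fold of 15.0 lay above those of the others, 5.07 to 7.25. By depth ASNS ranked 810 of 8329. All 6 peaks also lay in the noncoding gene CZ1P-ASNS, which runs through ASNS on the same strand, so the list cannot tell their RNAs apart.

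Of the amino acid carriers, SLC7A5 and SLC3A2 held the deepest summits of the 9 genes, and SLC7A11 came sixth. SLC3A2, the heavy chain (CD98) that brings light chains such as SLC7A5 and SLC7A11 to the cell surface, lies on chromosome 11 from 62856109 to 62888860 on the plus strand. Its 5 peaks held 17, 237, 66, 91 and 226 reads. The shallow first peak (9.90 to 27.2) followed the most upstream start, and the deep second peak (208 to 269) followed a start further along the gene, at 62880896. The last peak (197 to 257) did not differ from the second beyond their intervals and had the highest fold, 13.8, against 11.2. SLC3A2 ranked 81 by depth.

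SLC7A5, the light chain LAT1 that imports leucine and other large neutral amino acids, lies on chromosome 16 from 87830023 to 87869507 on the minus strand. It had the deepest summit of the 9 genes, 368 reads (331 to 408), in the peak after its start, at 87868888 to 87869480. That peak also had the highest fold, 20.6, and the gene ranked 41 by depth and 172 by fold. A middle peak held 118 reads (97.7 to 141). The peak at the downstream end was 2923 bases wide, the fourth widest of all peaks in coding genes. It held 306 reads at its summit (273 to 342) but a fold of only 3.78, and the 10 kb around it held 4009 reads, the most at any member peak. That 10 kb includes the 2923 bases of the peak itself.

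SLC7A11, the light chain xCT that exchanges glutamate for cystine, which cells need for glutathione, lies on chromosome 4 from 138164097 to 138242349. Its peak at the high-coordinate end, 138241633 to 138242324, held 129 reads (108 to 153) at a fold of 16.7. The other 4 held 21, 35, 33 and 51 reads, at folds of 3.17 to 4.55, and none of their intervals reached that of the first. The peak of 51 reads, at the low-coordinate end, also lay in the span of SLC7A11-AS1, a noncoding gene named as antisense. That peak is on the minus strand, like the other SLC7A11 peaks, and neither gene has a listed strand here. SLC7A11 ranked 235 by depth, next to PHGDH at 225, and their summits did not differ beyond counting error.

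**Figure D2:**
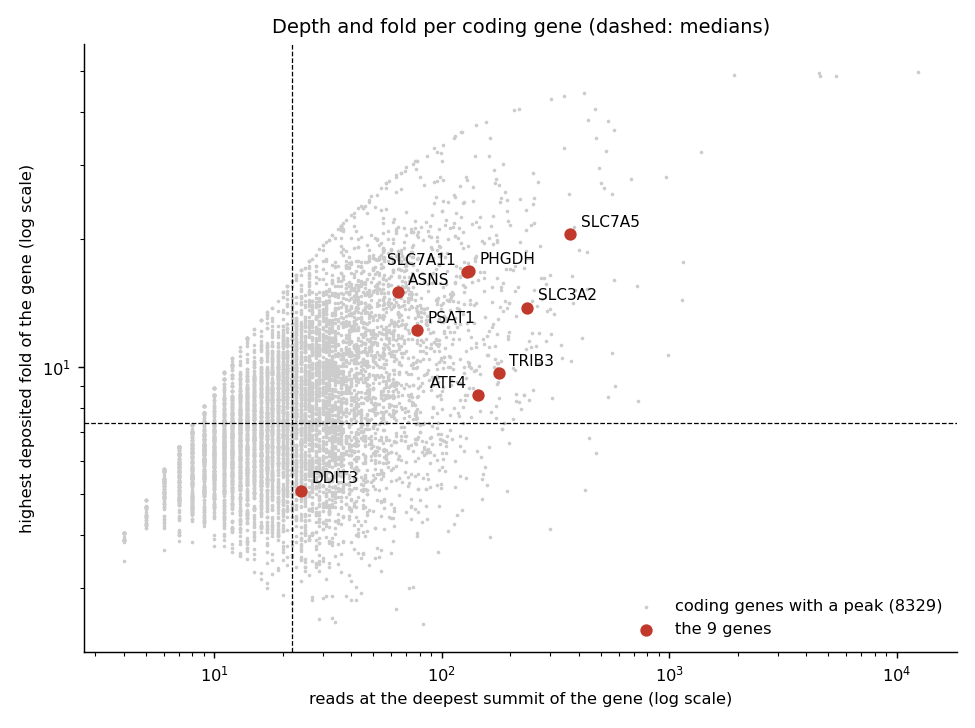
Highest deposited fold against reads at the deepest summit for each of the 8329 coding genes with a peak (grey) and the 9 members (red), both axes on log scales, with dashed lines at the medians of 22 reads and a fold of 7.37. DDIT3, at 24 reads, lies beside the median depth, and the other 8 members lie between 64 and 368 reads.

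Ordered by the deepest summit, the members were SLC7A5, SLC3A2, TRIB3, ATF4, PHGDH, SLC7A11, PSAT1, ASNS and DDIT3. SLC7A5 lay above SLC3A2 and SLC3A2 above TRIB3 without overlap of their intervals. TRIB3 overlapped ATF4, ATF4 overlapped PHGDH and SLC7A11, and PSAT1 overlapped ASNS. SLC7A11 lay above PSAT1, and ASNS above DDIT3. In all, 8 of the 9 members reached the upper quartile of depth among coding genes with a peak, 36 reads, as did 25.9% of those genes, and 6 reached the upper quartile of highest fold, 9.91, as did 25.0%. The median member had a deepest summit of 132 reads against 22, and a highest fold of 13.8 against 7.37. Each value is the highest of a gene's summits, so a gene with more peaks has more chances of a deep one. The intervals cover counting error only, and they are too narrow where PCR copies were counted as separate reads.

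Most members held a peak after a listed start and a peak at the downstream end, although most of their peaks lay in neither place. A peak overlapped the first 500 bases after a listed start in 7 of the 8 members with listed starts, all but DDIT3, against 26.4% of coding genes with a listed strand and 60.2% of those that also have a peak. A peak overlapped the last 500 bases of the gene in all 8, against 12.0% and 27.3%. Both held in 7 of 8, against 6.82% and 15.5%. In ASNS the peak after a start lay 73.5% of the way along the span, not at its upstream end. In ATF4, of 2128 bases, peaks covered 88.6% of the span, so few places in it lack a peak. With windows of 250 and 1000 bases the counts at starts were 7 and 7 (24.5% and 28.1% of coding genes with a listed strand) and at ends 6 and 8 (9.44% and 15.2%), where ASNS and PSAT1 were the members lost. The members are also deeper than most coding genes, and the part of depth in these counts was not tested.

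Of the 40 peaks in these 8 members, 22.5% overlapped the window after a start, 20.0% the end window and 57.5% neither. Over the gene-strand peaks of all coding genes the shares were 26.8%, 12.0% and 60.8%, so the members' share was higher at ends and slightly lower at starts.

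In the members the 9 peaks at starts had a median fold of 9.57 and 71 reads, the 8 peaks at ends 9.26 and 128 reads, and the 23 peaks between them 5.84 and 63 reads. Over all coding genes the medians were a fold of 7.54 and 20 reads at starts, 5.96 and 24 at ends, and 5.41 and 22 between. The members' medians were higher in all 3 places, by more in reads than in fold. The member folds at ends ran from 3.78 (SLC7A5) to 15.0 (ASNS), and at starts from 3.06 (SLC3A2) to 20.6 (SLC7A5). Of the 45 peaks 11 were at least 500 bases wide (24.4%), against 13.8% of peaks in coding genes. The members' median widths were 540 bases at starts, 646 at ends and 243 between. Exon positions were not available, so peaks were not assigned to exons or introns. The part of exon length in the contrast between places was not tested.

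**Figure D3:**
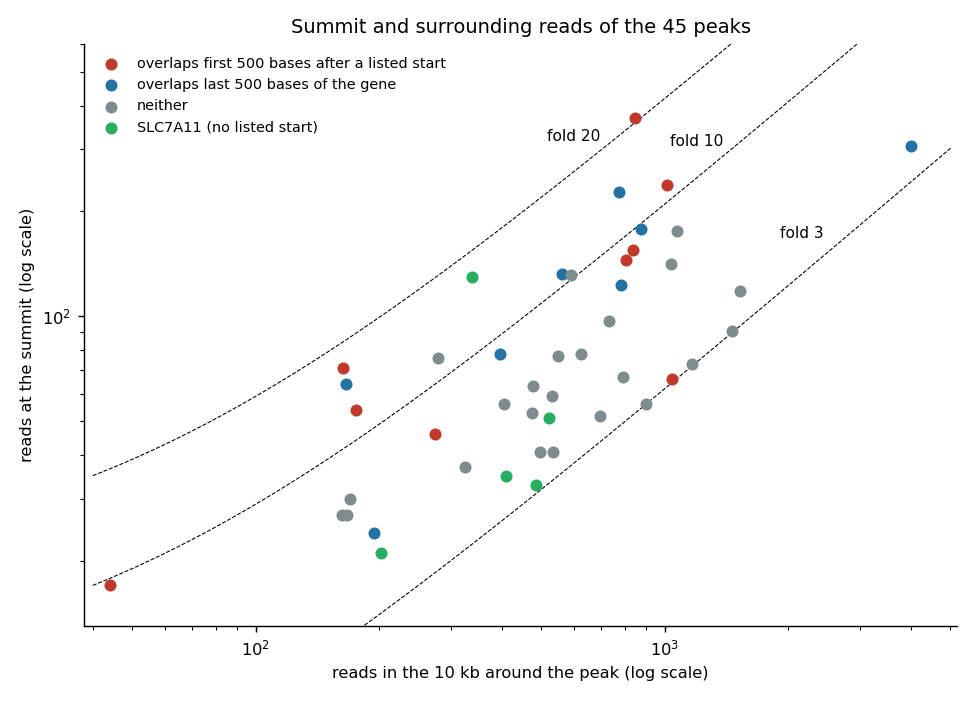
Reads at the summit against reads in the surrounding 10 kb for the 45 member peaks, both on log scales, coloured by place in the gene, with dashed lines where the fold is 3, 10 and 20. The start peak of SLC7A5 (368 of 846 reads) lies highest, and its wide end peak (306 of 4009 reads) lies far to the right near a fold of 3.78.

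The summit reads divided by the reads in the 10 kb resemble the fold but are not the same measure. The fold adds a constant to both summit and background, which lowers it most where the background is low. At the same ratio of 38.6% the fold was 9.57 in the first SLC3A2 peak (44 reads in 10 kb) and 15.0 in the last ASNS peak (166 reads). This ratio was 43.5% at the start of SLC7A5 and 7.63% at its end, 16.8% at the start of ASNS and 38.6% at its end, and 18.5% and 20.3% at the start and end of TRIB3. The genes thus differed in whether the start or the end stood higher above its background, and each background includes the peak itself. Of the 8 members with several peaks, 5 had their highest fold in the most upstream peak and 4 had their deepest summit in the most downstream one. In 5 of the 8 the same peak had both. In PHGDH the 10 kb held 164 reads around the first peak and 279 to 732 around the others, and in PSAT1 176 against 396 to 533, so folds at different places of these genes were set against different backgrounds.

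Copies of the members elsewhere in the genome also held peaks. Of 14 pseudogenes named after ATF4, ASNS, PSAT1 or SLC7A5, 6 held 1 peak each, against 5.07% of all 16849 pseudogenes of the table on chromosomes 1 to 22, X and Y. SLC7A5P2, on chromosome 16 from 21517893 to 21520444, was the deepest, with 134 reads (112 to 159) at a fold of 17.5. SLC7A5P1 held 20 reads, in a span shared with SMG1P2, and ATF4P3 held 28, inside RNF157. ATF4P4 and PSAT1P3 held 14 reads each, PSAT1P1 held 7, and none of the 4 ASNS pseudogenes held a peak. Such copies can resemble their parent gene closely, and the sources used here do not say how reads that match several places were handled. The reads of SLC7A5 and of SLC7A5P2 are therefore uncertain to the extent that they could be exchanged.

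The other genes of the pathway were taken from 8 lists, and 63 of their 76 genes held a peak, again against 41.6% of coding genes. These lists were chosen with earlier results of these data known, so their counts are not independent of the data. Over those 63 genes the median deepest summit was 36 reads and the median highest fold 7.60. Upstream of ATF4, 10 of 11 genes held a peak in the list of stress kinases, eIF2, its phosphatase cofactors and associated genes. The exception was IMPACT, one of the associated genes. The deepest were EIF2S3, the gamma subunit of eIF2, with 91 reads (73.3 to 112), and PPP1R15A (GADD34), which directs dephosphorylation of eIF2, with 82 reads (65.2 to 102). Of the subunits of eIF2B, the exchange factor that phosphorylated eIF2 blocks, 3 of 5 held a peak, led by EIF2B5 with 28 reads. EIF2B1 had 13 reads, as did EIF2B2.

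Stress transcription factors, among them the bZIP partners of ATF4, held a peak in 9 of 9 genes. NUPR1 had 119 reads (98.6 to 142) at a fold of 13.7 and XBP1, the factor of the unfolded protein response, 114 reads (94.0 to 137) at 13.1. The median of the 9 was 53 reads, above the 24 reads of DDIT3. Further amino acid transporters held one in 8 of 10, and none was counted in SLC7A3 or SLC36A4. SLC1A5, the glutamine transporter, had 172 reads (147 to 200) and SLC7A1, for cationic amino acids, 99 reads (80.5 to 121). SLC1A5 lay below SLC3A2 and above PSAT1, while the interval of SLC7A1 overlapped that of PSAT1.

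Enzymes of serine, glycine, proline, folate and sulfur amino acid metabolism held a peak in 10 of 12 genes, without ALDH1L2 and CBS. PYCR1, of proline synthesis, had 102 reads (83.2 to 124), and SHMT2, the mitochondrial enzyme that turns serine into glycine, 86 reads (68.8 to 106). PSPH, which completes serine synthesis after PHGDH and PSAT1, had 1 peak of 14 reads (7.65 to 23.5), below the deepest summits of both. Other stress targets held one in 12 of 13 genes, all but FGF21. This list had the highest median, 78 reads, and 2 of its genes were deeper than every member: VEGFA, an angiogenic growth factor, with 561 reads (516 to 609) and GDF15, a stress cytokine, with 415 reads (376 to 457), although the interval of GDF15 overlapped that of SLC7A5.

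Amino acid sensing upstream of the kinase complex mTORC1 was the largest of the 8 lists and among the shallowest. It held a peak in 10 of 14 genes, with a median of 15 reads. RPTOR, the scaffold of the complex, had 43 reads (31.1 to 57.9), and NPRL3, of a complex that restrains it, 41 reads (29.4 to 55.6). Of the ubiquitin ligase genes that turn over ATF4, FBXW11 had 14 reads and BTRC no peak. A gene can lack a called peak because it has little RNA, so genes without one are only counted here.

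**Figure D4:**
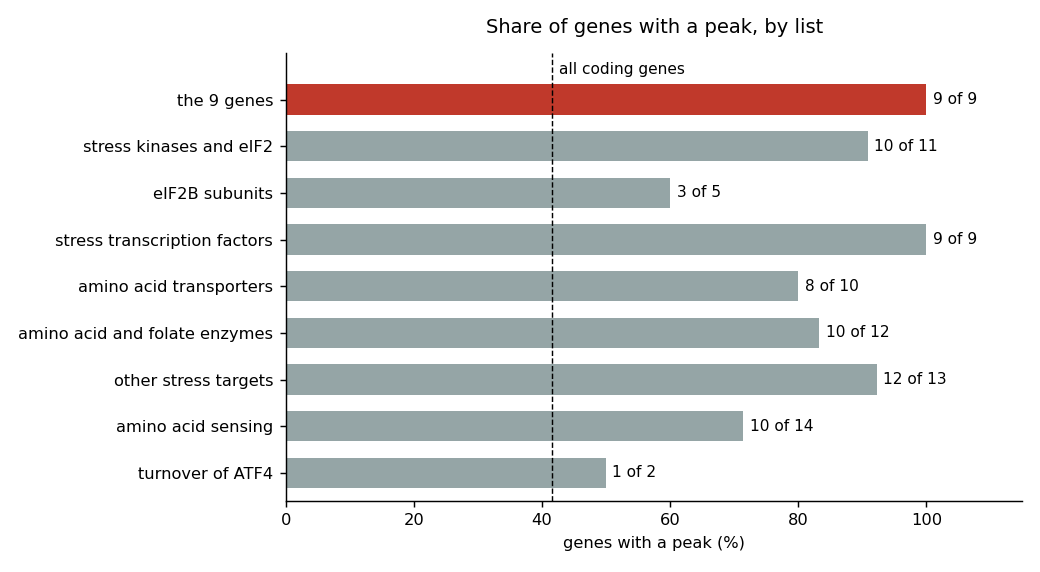
Share of genes with a peak in percent for the 9 members (red) and the 8 wider lists (grey), with the number of genes beside each bar and a dashed line at 41.6% for all coding genes. All 9 bars lie to the right of the line, from 1 of 2 genes for turnover of ATF4 to 9 of 9. In so short a list 1 of 2 is the possible count nearest to the line. The eIF2B list, with 3 of 5, is also too short to be told from it.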

How the data were processed

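The libraries were 1 input and 2 immunoprecipitate replicates. The deposited file is a peak list without a header, called apart on each strand. Per the submitters' processing notes it was made with cutadapt, BWA and MACS2 on hg38; versions and settings, and whether replicates were pooled, are not given in the sources used here. The authors' columns are a score (10 times −log10 q, cut to a whole number), the fold (a ratio of summit to background), −log10 p, −log10 q (lowest 1.31) and the summit offset in bases. Reads at a summit and in 10 kb were recovered from the deposited fold and −log10 p as the whole number of reads that gives both under the caller's Poisson test. The deposited −log10 p was met (to 0.0001, plus 0.00001 of its own size) in 21028 of 21031 peaks, and the procedure was tested on simulated data. Depth per library is unknown. Intervals are exact Poisson intervals at 95% and cover counting error only, since PCR copies are not independent. Python 3.11.15 with SciPy 1.17.1 was used. Gene strand and starts came from the RefSeq promoter table (GRCh38.p14), which held 8 of the 9 members and 15842 coding genes.

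All members, the 2 deepest genes of each wider list and the genes overlapping a member's peak are named. The lists, markers and members were chosen with earlier results of these data known; further genes (MARS1, the pseudogenes, genes without a peak, EIF2B2 and PSPH) were named after their values were seen, as were the windows at gene ends. No test was made, because there is 1 list and peaks are not replicates. Alternatives were any overlap, the summit, stricter q or fold, peaks in 1 gene, gene strand and peaks per 10 kb.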

Additional observations from a re-analysis of the deposited data

How the results depend on the processing

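Of 42 recalculated counts 40 stayed within 1.5 times the reported value. When peaks under the median −log10 q were left out, 8 members (all but DDIT3) and 25.9% of coding genes held a peak, in place of 9 and 41.6%. Leaving out peaks under the median fold, 26 of the 45 member peaks remained, in 8 members. Counting only peaks in exactly 1 gene left 38 peaks in 8 members. All 6 ASNS peaks lie in CZ1P-ASNS as well, and 1 SLC7A11 peak lies in SLC7A11-AS1. Any overlap or the summit in place of the centre gave 45 peaks in 9 members. The windows of 250 and 1000 bases were chosen after seeing the data; they gave 7 and 7 members with a peak after a start, and 6 and 8 at the gene end. All 100 recalculated depths and folds of single members were within the reported interval or equal. Each is a gene's highest value, which leaving out lower peaks cannot change, so this says little about robustness. Members left without a value are not among the 100. These were DDIT3 under the stricter q and fold, ASNS for peaks in exactly 1 gene, and SLC7A11 on the gene strand. No paired analysis was possible because the list carries no values of single libraries, and for the same reason no replicate could be left out. A summit of 24 reads, as in DDIT3, has an interval of 15.4 to 35.7, so small differences among shallow peaks were not detectable at this depth.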
